A study of Mus musculus with 2 samples.

Results

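Accessible chromatin in gene deserts, stretches of the genome outside protein-coding genes and far from their start sites, was described in mouse hippocampus. A gene desert was taken as an autosomal interval outside every protein-coding gene body of GENCODE M21. It also lay over 200000 bp from the start site of every protein-coding transcript in the basic set. No distance from the far end of a gene body was required, so a desert could adjoin that end. Start sites of other transcripts of coding genes were not used. Its accessible sites were the DNase-seq peaks of replicate 1 that overlapped a peak of replicate 2 by at least 1 bp. There were 9189 such desert sites among 101647 autosomal sites found in both replicates, or 9.04%. The remaining sites comprised 30798 intergenic sites nearer to start sites, 40027 sites in coding gene bodies and 21633 promoter sites within 1000 bp of a start site. The rule used position and detection in both replicates, and did not use heights, footprints, sequence or the identity of neighbouring genes directly. Detection in both replicates favours tall peaks, so heights and values that go with height are not independent of the rule. Desert peaks of replicate 1 had a median height of 0.512 with a counterpart in replicate 2 and 0.243 without.

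Both samples came from the layer of hippocampus of male B6CASTF1/J mice, a first-generation cross of C57BL/6J and CAST/EiJ, aged 8 to 10 months and given no treatment in the labels. Each of the 2 biological replicates was a pool of 2 biosamples. The labels give both pools the same donor entry and do not say whether they shared animals, so the spread between them may be partly technical. There was 1 group and no control, so conditions could not be tested and the text prints no p-value. Values are given for each replicate, and a difference is described by whether it held in both replicates and on how many of the 19 autosomes. Promoters of 29 of 30 synapse and pyramidal neuron genes and of 47 of 50 forebrain transcription factor genes carried a peak in both replicates, as did those of 18 of 33 markers of glia, vessels and choroid plexus. Over all autosomal coding genes the share was 63.5%. The tissue was a mixture of cells, in which a site open in few cells and a site weakly open in many cells cannot be told apart.

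DNase I cuts DNA where nucleosomes are displaced, so that clusters of cuts mark promoters, enhancers and insulators. Within such a site, a protein bound to the DNA shields a short stretch that appears as a footprint. Gene deserts beside developmental and neuronal genes are known to hold enhancers that act on those genes over long distances, and CTCF, the zinc finger protein that anchors chromatin loops, is a frequent occupant of distal sites. Neuronal basic helix-loop-helix factors such as NEUROD proteins bind E-boxes of the type CAGATGG, and factors of the homeobox and POU families bind AT-rich sites.

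The sequences below show tall desert sites that hold a motif touched by a footprint in both replicates. Each is the 200 bp window at the midpoint of a site, read 5′ to 3′ on the forward strand of mm10, and capitals mark the match of the named motif alone, while any other match is in lower case. The first 2 show the NEUROD-type E-box, on the forward strand between Triqk and Runx1t1 (chr4:13146951-13147150) and on the reverse strand as CCATCTG between Zeb2 and Acvr2a (chr2:45411921-45412120). The next is a tall site with a single copy in the reference and a CTCF match, between Slc7a11 and Noct (chr3:50906061-50906260). The fourth is the POU octamer ATGCAAAT between Slc4a3 and Epha4 (chr1:75877301-75877500), where a reverse-strand NEUROD-type match, in lower case, follows it. The last holds overlapping EGR and SP matches at the start of the long noncoding RNA gene Gm26901, between Pcmtd1 and Sntg1 (chr1:7398081-7398280). The CTCF and POU examples were chosen after their values were seen.
Triqk-Runx1t1: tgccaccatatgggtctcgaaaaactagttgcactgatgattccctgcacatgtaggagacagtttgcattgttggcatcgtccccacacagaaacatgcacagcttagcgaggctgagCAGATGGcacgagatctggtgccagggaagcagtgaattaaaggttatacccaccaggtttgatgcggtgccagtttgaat
Zeb2-Acvr2a: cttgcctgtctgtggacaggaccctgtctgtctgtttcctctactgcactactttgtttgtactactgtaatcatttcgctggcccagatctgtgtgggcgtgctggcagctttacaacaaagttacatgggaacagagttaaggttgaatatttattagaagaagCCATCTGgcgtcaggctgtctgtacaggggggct
Slc7a11-Noct: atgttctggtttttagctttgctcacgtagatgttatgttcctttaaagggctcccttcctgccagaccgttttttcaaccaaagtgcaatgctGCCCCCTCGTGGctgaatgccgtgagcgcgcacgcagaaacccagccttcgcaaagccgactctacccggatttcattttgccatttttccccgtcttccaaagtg
Slc4a3-Epha4: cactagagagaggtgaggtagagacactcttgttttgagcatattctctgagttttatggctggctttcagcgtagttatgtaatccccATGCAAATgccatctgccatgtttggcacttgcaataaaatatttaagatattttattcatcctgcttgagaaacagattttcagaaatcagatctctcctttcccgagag
Pcmtd1-Sntg1: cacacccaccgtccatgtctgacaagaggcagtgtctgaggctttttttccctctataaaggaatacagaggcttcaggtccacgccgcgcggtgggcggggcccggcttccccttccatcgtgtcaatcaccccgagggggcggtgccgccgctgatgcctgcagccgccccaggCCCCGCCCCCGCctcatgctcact
The Triqk-Runx1t1 site had a height of 7.57 in replicate 1 and 6.53 in replicate 2, with 5 footprints in each. The Zeb2-Acvr2a site reached 3.98 in replicate 1 and 3.17 in replicate 2, with 3 and 4 footprints. The Slc7a11-Noct site had heights of 5.96 and 4.95 with 4 and 5 footprints, and the Slc4a3-Epha4 octamer site had heights of 1.44 and 1.35 with 4 and 3 footprints, in replicates 1 and 2. These examples sit well above the median desert site given next.

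Desert sites were sparse and low. Height is the authors' deposited value per peak, on a scale that is not stated. The sources used here give no library depth. The median height of desert sites was 0.512 in replicate 1, with quartiles of 0.341 and 0.853, and 0.446 in replicate 2, with quartiles of 0.303 and 0.717. Other distal sites, which are all sites beyond promoters and deserts, had medians of 0.807 in replicate 1 and 0.704 in replicate 2. The desert median was therefore 0.634 ± 0.000791 of that of other distal sites (ratio, SD, n = 2), and it was lower on 19 of 19 autosomes in each replicate. Against promoter sites, with medians of 1.72 and 1.43, the ratio was 0.305 ± 0.0103 (SD, n = 2). Among sites at or above the median height of all shared sites the ratio to other distal sites was 0.929. Deserts covered 536 Mb, or 22.4% of the autosomal sequence, and held 17.1 sites per Mb. Intergenic sequence nearer to start sites held 36.1 sites per Mb and coding gene bodies 41.9.

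**Figure D1:**
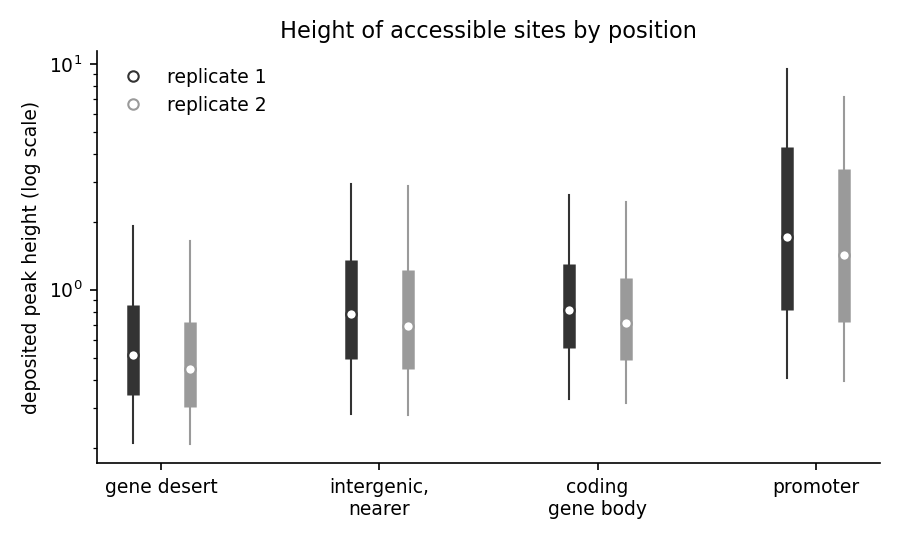
Deposited peak height (log scale) of sites in gene deserts, in intergenic sequence nearer to start sites, in coding gene bodies and at promoters, for replicate 1 (dark) and replicate 2 (light). Circles are medians, thick bars span the quartiles and thin lines the 5th to 95th percentiles. The desert medians of 0.512 and 0.446 are the lowest of the 4 classes in each replicate.

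Density and height changed gradually with distance and showed no step at the limit used to define a desert. There were 24.98 sites per Mb at 200 to 300 kb from the nearest coding start site, 20.1 at 300 to 500 kb, 12.8 at 500 to 1000 kb and 6.92 beyond 1000 kb. At 1 to 10 kb the density was 39.3 per Mb. Median height in replicate 1 was 0.558 at 200 to 300 kb, 0.525 at 300 to 500 kb, 0.456 at 500 to 1000 kb and 0.381 beyond 1000 kb. Replicate 2 gave 0.497, 0.458, 0.394 and 0.336 over the same bins. The 441 sites just inside the limit, at 200 to 210 kb, had median heights of 0.571 and 0.510 in replicates 1 and 2, against 0.584 and 0.510 for the 434 intergenic sites just outside it, at 190 to 200 kb.

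**Figure D2:**
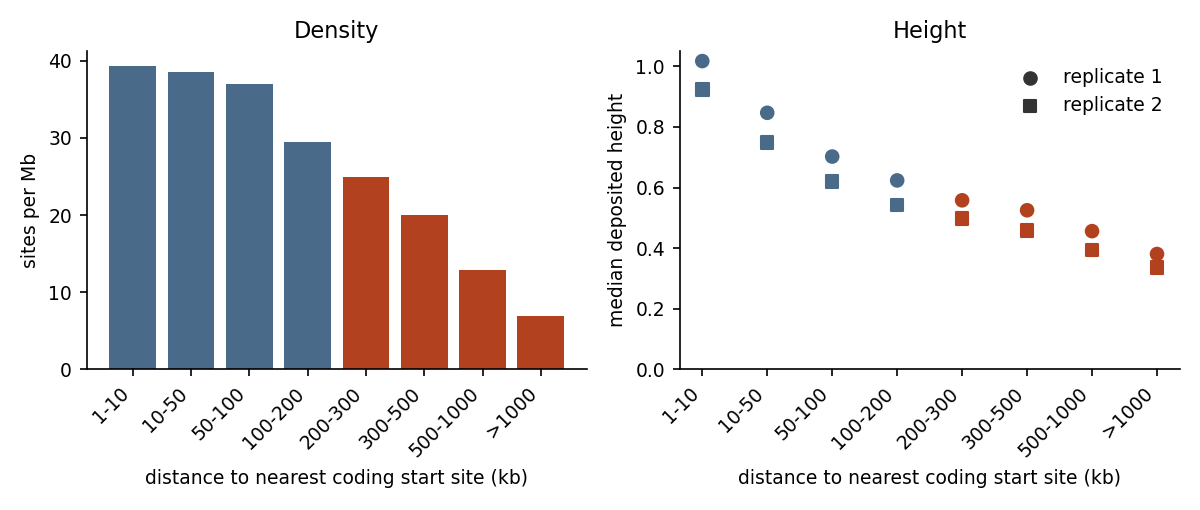
Left, sites per Mb outside coding genes, and right, median deposited height in replicate 1 (circles) and replicate 2 (squares), by distance to the nearest coding start site in kb. Bins over 200 kb (gene deserts) are red and nearer bins blue. Density lies at 24.98 per Mb in the nearest desert bin and at 6.92 in the farthest.

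The heights of desert sites agreed between the replicates, though less closely than those of the other classes. Over 9075 desert sites whose peaks were each other's best overlap, Spearman's rho was 0.897 across sites, which are not independent replicates. It was 0.932 for nearer intergenic sites, 0.921 for gene body sites and 0.983 for promoter sites. These classes were not compared at matched height, and peaks found in only 1 replicate were left out. After scaling to the median ratio of all shared sites, 107 desert sites, or 1.18%, differed more than 2-fold between replicates. The background among all 99302 shared autosomal pairs was 0.552%, with 0.37% above 2-fold in replicate 2 and 0.182% below 1/2. Of the 107 desert sites, 55 were higher and 52 lower in replicate 2. The largest difference upward was between Irx1 and Irx2, homeobox genes of early patterning, where a site had a height of 0.249 in replicate 1 and 0.672 in replicate 2. The largest difference in the other direction was between Gdf6, a growth and differentiation factor, and 2610301B20Rik, with heights of 0.755 in replicate 1 and 0.213 in replicate 2. Without scaling, 1.79% of desert sites differed more than 2-fold.

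Most desert peaks of each replicate had a counterpart in the other. Replicate 1 had 13820 peaks in deserts, of which 66.5% overlapped a replicate 2 peak, and replicate 2 had 11247, of which 81.8% overlapped a replicate 1 peak. For other distal peaks the shares were 70.3% and 83.6%. At equal height the order turned round. Other distal peaks taken in the height deciles of desert peaks were shared in 53.3% and 70.1% of cases. In the fourth height decile of replicate 1, for instance, 80.5% of desert peaks and 55.5% of other distal peaks were shared. Desert peaks without a counterpart were low, with median heights of 0.243 in replicate 1 and 0.239 in replicate 2. Of the 4631 in replicate 1, 11.4% fell in an interval listed in the deposited false discovery rate file of replicate 2, and of the 2049 in replicate 2, 18.01% did so in that of replicate 1. In the shorter, stricter deposited peak lists, 4929 desert sites were found in both replicates.

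Footprints were found in most desert sites. At least 1 footprint lay in 81.6% of desert sites in replicate 1 and in 79.3% in replicate 2, a mean of 80.5 ± 1.65% (SD, n = 2). Other distal sites had a footprint in 89.3% and 88.7%, and the desert share was lower on 19 of 19 autosomes in each replicate. Other distal sites at the heights of the desert sites, however, had a footprint in 78.1% in replicate 1 and 77.4% in replicate 2. Across 10 height deciles the desert share was below that of other distal sites in 0 deciles of replicate 1 and 1 decile of replicate 2. Both replicates had a footprint in 6377 desert sites, or 69.4%, with a background of 80.3% over all distal sites. No footprint in either replicate was found in 778 desert sites, or 8.47%, against 3.67% of other distal sites, not matched for height. The median heights of the 778 were 0.243 in replicate 1 and 0.239 in replicate 2.

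**Figure D3:**
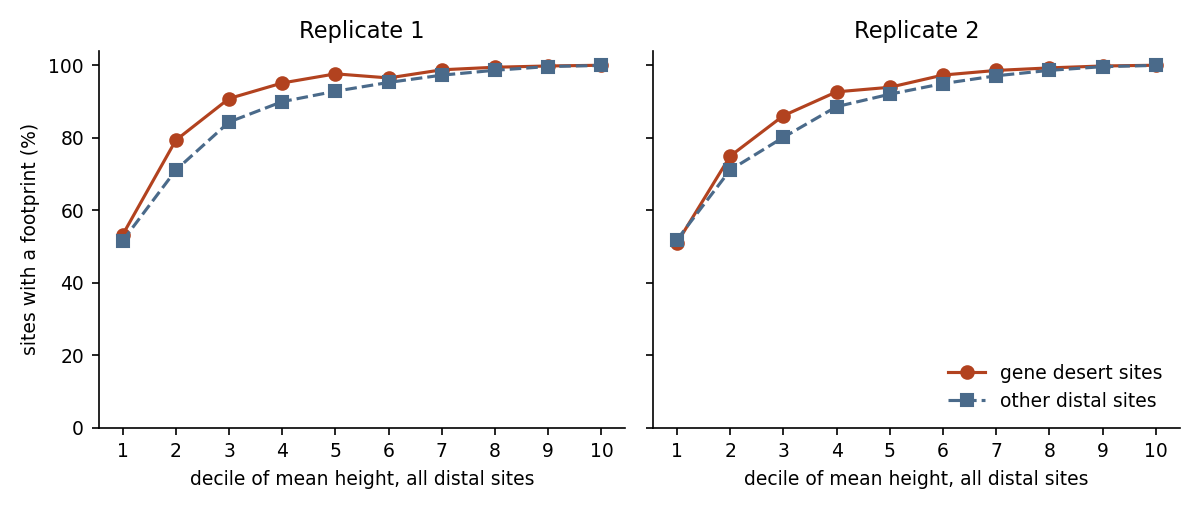
Share of sites with at least 1 footprint (%) by decile of mean height over all distal sites, for gene desert sites (red, solid) and other distal sites (blue, dashed) in replicate 1 (left) and replicate 2 (right). In the second decile the desert share is 79.3% in replicate 1 and 74.9% in replicate 2, against 71.1% in both for other distal sites.

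The footprints themselves were short. There were 19026 footprints in desert sites in replicate 1 and 17800 in replicate 2, with a median length of 9 bp in deserts and 10 bp in other distal sites. Of the desert footprints, 11.2% and 11.3% were at least 20 bp long, against 16.2% and 16.6% at other distal sites. A footprint of the other replicate overlapped 44.4% of those in replicate 1 and 47.1% of those in replicate 2, against 53.9% and 53.8% at other distal sites. These comparisons of length and overlap were not made at matched height. The site with the most footprints, 12 in replicate 1 and 11 in replicate 2, was 1280 bp long and lay in Mir99ahg, the host gene of a microRNA cluster, between Usp25 and Gm11146 (chr16:77238501-77239780). A 520 bp site between Klhl29 and Apob had 11 in each replicate (chr12:6638781-6639300), with heights of 2.86 and 2.25.

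In sequence, desert sites were richer in GC than the deserts around them and poorer than other accessible sites. Their median GC content was 46.9%, in deserts with 38.8% GC, while nearer intergenic sites had a median of 50.4% and gene body sites 51.0%. The median observed over expected ratio of CpG was 0.209, against 0.265 at nearer intergenic sites. No CpG at all was held by 14.9% of desert sites, 8.56% of nearer intergenic sites and 8.37% of gene body sites. Repeat-masked sequence made up 39.4% of the desert territory, against 33.5% of the whole autosomal sequence. Mostly repeat-masked sequence was found in 2.45% of desert sites, 2.72% of nearer intergenic sites and 2.12% of gene body sites. The share was 2.02% over all shared sites.

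Desert sites held fewer CTCF matches and more NEUROD-type E-box and homeobox matches than other distal sites. Exact matches to 19 consensus strings were searched on both strands in 200 bp windows at site midpoints, and 60.1% of desert sites matched at least 1. The CTCF consensus, of 12 letters, was found in 455 desert sites, or 4.95%, against 11.3% of other distal sites, 8.13% of other distal sites at the heights of the desert sites, 3.36% of promoter sites and 0.655% of windows 1000 bp beside desert sites that touched no peak. The desert share was higher on 0 of 19 autosomes. Outside coding genes the CTCF share was 5.11% at 200 to 300 kb, 4.88% at 300 to 500 kb, 4.86% at 500 to 1000 kb and 4.76% beyond 1000 kb, after 17.8% at 1 to 10 kb. The Slc7a11-Noct sequence above is a tall example. Desert sites with a CTCF match had median heights of 0.696 and 0.710 in replicates 1 and 2, against 0.505 and 0.439 for those with none.

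The NEUROD-type E-box CAGATGG was found in 1961 desert sites, or 21.3%, as in the Triqk-Runx1t1 and Zeb2-Acvr2a sequences. It was found in 16.5% of other distal sites, 16.2% of these at the heights of the desert sites, 3.69% of promoter sites and 3.51% of the flanking windows, and the desert share was higher than that of other distal sites on 19 of 19 autosomes. Its share was 20.5% at 200 to 300 kb, 20.7% at 300 to 500 kb, 22.1% at 500 to 1000 kb and 27.5% among the 546 sites beyond 1000 kb, after 12.4% at 1 to 10 kb. The homeobox core TAATTA was found in 6.57% of desert sites, against 4.30% of other distal sites, 4.82% at matched heights, 1.13% of promoter sites and 7.95% of flanking windows. It too was more frequent at desert sites than at other distal sites on 19 of 19 autosomes, but less frequent than in the AT-rich sequence beside them. The POU octamer was found in 2.08% of desert sites against 1.40% of other distal sites, with the desert share higher on 17 of 19 autosomes. It was found in 0.749% of promoter sites and 1.63% of flanking windows.

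Other motifs differed less or were rare. The E-box CAGCTG was found in 22.2% of desert sites and 21.4% of other distal sites, with 12.6% of promoter sites and 6.88% of flanking windows. The AP-1 string TGANTCA was found in 12.3% of desert sites and 10.6% of other distal sites, with 3.18% of promoter sites and 6.37% of flanking windows. The SP string GGGGCGGGG, the EGR string GCGNGGGCG and the CRE string TGACGTCA, all with CpG, were found in 0.468%, 0.185% and 0.163% of desert sites, in 1.18%, 0.657% and 0.429% of other distal sites, and in 12.99%, 7.84% and 2.28% of promoter sites. EGR and SP matches can overlap, as in the Pcmtd1-Sntg1 sequence.

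Footprints touched some motif matches far more often than other positions. Of 458 CTCF matches in desert sites, 72.3% were touched by a footprint in replicate 1 and 71.2% in replicate 2, while 21.4% and 20.003% of all positions of that length in these windows were touched. Footprints of both replicates touched 64.0% of the CTCF matches. Of 2129 NEUROD-type matches, 48.4% and 43.4% were touched, against 17.0% and 15.9% of all positions of that length, and 33.1% were touched in both replicates. The homeobox core was touched in 10.0% and 7.67% of 639 matches, below the 16.04% and 15.0% of all positions of its length. The POU octamer was likewise touched in only 12.1% and 9.05% of 199 matches, below 17.9% and 16.7% of positions. The octamer example printed above is therefore not typical of POU matches. AP-1 matches, 1238 in all, were touched in 19.3% and 16.6%, near the 17.0% and 15.9% of positions of that length.

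**Figure D4:**
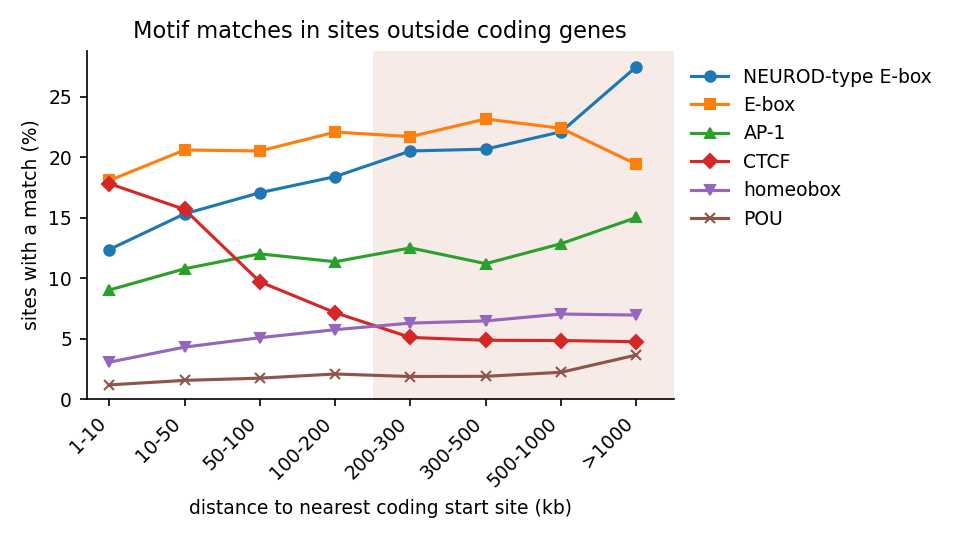
Share of sites outside coding genes with an exact match in the 200 bp midpoint window (%), by distance to the nearest coding start site in kb, for 6 motifs. The shaded bins are gene deserts. The CTCF share lies near 5% in all desert bins, and the NEUROD-type E-box share lies between 20.5% and 27.5% there.

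Sites were unevenly spread over deserts, and longer deserts held more, with a rho of 0.783 between desert length and number of sites. Of 947 deserts, 818 held at least 1 site, with a median of 8 and quartiles of 3 and 16 over those 818, and 159 deserts held 50% of all desert sites. The 129 deserts with none summed to 7.86 Mb and had a median length of 23.1 kb, against 392 kb for those with a site, but reached 644 kb. Some of the 129, such as Mup22-Mup13, held no sequenced base and so could hold no site. The most sites, 70, lay in the 4119 kb between Celf4, a neuronal RNA-binding protein gene, and Pik3c3, a lipid kinase gene. Next came 64 between Zeb2, a zinc finger repressor of neural development, and the activin receptor gene Acvr2a, and 53 between the teneurin adhesion gene Tenm2 and Mat2b. The shorter deserts Zfp608-Gramd3 and Auts2-Castor2 held 51 each, in 1010 kb and 1158 kb. The other deserts of the first 10 were Arpp21-Pdcd6ip with 49, Vrk1-3110018I06Rik and Klhl29-Apob with 48 each, and Slc4a3-Epha4 and Celf2-Gata3 with 46 each, a number that Slc10a2-Efnb2 also reached. At 17.0 sites per Mb the Celf4-Pik3c3 desert was near the average, whereas Zfp608-Gramd3 held 50.5 per Mb.

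**Figure D5:**
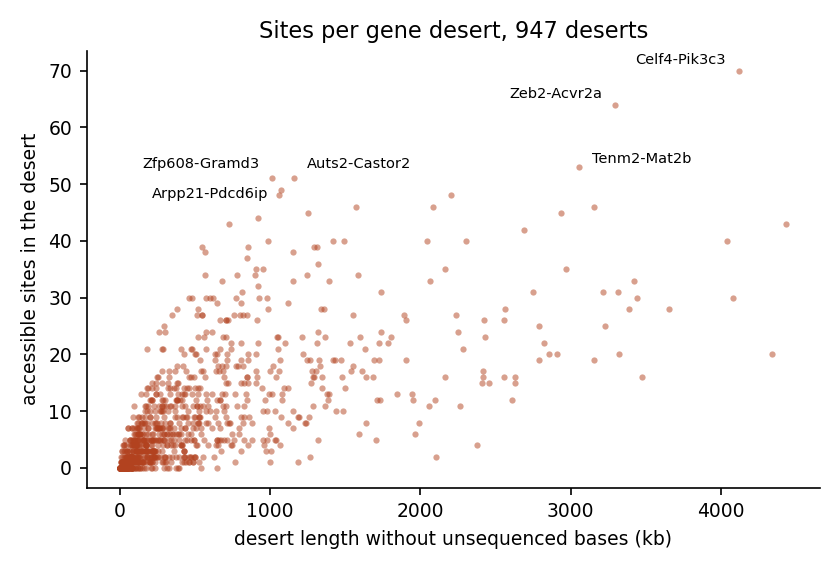
Number of accessible sites against length in kb (unsequenced bases left out) for each of 947 gene deserts, with the 6 deserts with the most sites named by their flanking genes. Deserts of about 1000 kb range from 1 site to 51.

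Among the 341 deserts of at least 500 kb, density had a median of 14.3 sites per Mb with quartiles of 8.06 and 23.7. The highest was 71.7 per Mb, in the desert between the ribosomal protein gene Rps24 and the transcriptional coregulator gene Zmiz1, and the next was 67.1 per Mb between Ubash3b and Sorl1. Deserts Gm12887-9530002B09Rik and Sema3d-Sema3a held no site. In the 85 densest of these, with 35.9 sites per Mb, the median height was 0.584 in replicate 1 and 0.497 in replicate 2, against 0.368 and 0.316 in the 86 sparsest with 5.67 per Mb. The densest 85 also had less repeat-masked sequence, 29.98% against 46.1%, and more GC, 41.4% against 37.4%. The part of repeats and base composition in the density was not tested. Genes flanking the densest 85 had an open promoter, that is a peak within 1000 bp of a coding start site in both replicates, in 87.3% of cases, against 66.7% for the sparsest 86.

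Desert sites were more widely spaced than others. The median gap to the nearest other site of the class, on either side, was 11583 bp. It was 5666 bp for nearer intergenic and 5700 bp for gene body sites. Another site lay within 10000 bp of 47.1% of desert sites, against 62.2% and 63.6%. Joining sites with gaps up to 10000 bp gave 6619 groups, of which 4861 were single sites. The 70 clusters of at least 5 sites held 395 sites, or 4.30%, with median heights of 0.742 and 0.639 in replicates 1 and 2, against 0.453 and 0.400 for single sites.

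The largest cluster had 12 sites in 20760 bp between Hivep2, a zinc finger gene, and the adhesion receptor gene Adgrg6 (chr10:14196061-14216820). This cluster lay 44686 bp from the gene body of Hivep2. It began at the long noncoding RNA gene Gm48843, with its tallest site by mean height, of 2.73 in replicate 1 and 2.11 in replicate 2, at that start. Clusters of 9 sites lay between Foxo1, a forkhead factor of insulin signalling, and Cog6, and between the cation channel gene Trpc7 and the proteoglycan gene Spock1. There were 7 clusters of 7 sites. Of these, 1 spanned 4240 bp and lay between Zfp608 and Gramd3. Another of 7 lay between Ubash3b and the sorting receptor gene Sorl1 and spanned 10700 bp. Its tallest site, of height 2.26 and 1.78, lay within 1000 bp of the annotated start of Mir125b-1. The same site also lay at starts of the long noncoding RNA genes 3110039I08Rik and Gm28119, and cannot be assigned to 1 of these genes. Mir125b-1 yields miR-125b, a microRNA of neurons and progenitor cells. Its mature sequence is below, credited to RefSeq on GRCm38.p6, and capitals mark the seed.
mmu-miR-125b-5p: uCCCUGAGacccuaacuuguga

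The 10 tallest desert sites included several at noncoding genes or in repeated sequence. The tallest had heights of 19.5 and 19.9 in replicates 1 and 2, lay at the start of the pseudogene Gm21769 on chromosome 8 (chr8:20122141-20122320), held a CTCF match and had 5 further copies in the reference at 90% identity or more over at least 80% of its length. The effect of such copies on its height was not tested. The second, 9.86 and 7.62 with 9 and 8 footprints, lay 237 kb from Myt1l, a neuronal zinc finger repressor gene (chr12:29291021-29291380), and had no further copy. The third, between Cntnap5b and the cadherin gene Cdh20, was lower in replicate 1 (6.86) than in replicate 2 (9.54), lay 2140 kb from the nearest gene and had 2 further copies. Next to each other at the start of Gm26901 stood the fourth, of height 8.50 and 6.52, and the sixth, of 7.47 and 6.20. The fifth was the Triqk-Runx1t1 site, beside a gene for a transcriptional corepressor.

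A further 3 of the 10 had heights between 6.15 and 7.13. They lay at the start of the long noncoding RNA gene A230028O05Rik between Lpp and Tprg, between Pik3c3 and Rit2, and between Slc4a3 and the ephrin receptor gene Epha4. At the other end, 4 of the 5 sites farthest from a coding start site lay between the protocadherin genes Pcdh20 and Pcdh9 on chromosome 14, up to 2554 kb from the nearest coding start site, with heights from 0.144 to 0.523 over both replicates. The tallest of these 4, of 0.453 and 0.523, had 3 and 4 footprints. The site at chr14:90935789-90935874 was wholly repeat-masked, had 432 further copies in the reference and held no footprint in either replicate. The site at chr14:90889884-90890117 had no further copy and held no footprint in either replicate.

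The genes next to deserts with sites included many regulators of neural development and adhesion. Of 20780 autosomal coding genes, 1414 flanked such a desert, and 1111 of these, or 78.6%, had an open promoter, with a background of 63.5% over all autosomal coding genes. That background is lowered by 1455 olfactory and vomeronasal receptor genes, of which 39 had an open promoter and 3 flanked such a desert. Counts below are read against the 6.8% of all coding genes that flank such a desert. They describe position next to a desert and carry no test. Most deserts, 818 of 947, held a site, and the share of each gene list that flanks any desert is not given. Numbers of sites per gene are not scaled to desert length, and longer deserts held more sites.

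Adhesion and axon guidance genes flanked deserts with sites in 52 of 64 cases, or 81.3%. Tenm2 had 53 sites in its larger adjoining desert, the cadherin gene Cdh8 had 45, with 80 over both sides, and the teneurin genes Tenm3 and Tenm4 had 43 and 42. Among forebrain transcription factors 33 of 50 flanked such a desert, led by Zeb2 with 64 sites, the helix-loop-helix inhibitor Id2 with 44, the POU factor Pou3f3 with 40 and the zinc finger factor Bcl11a with 39. Of channels and transmitter receptors, 29 of 51 autosomal members did, including the muscarinic receptor gene Chrm3 with 35, the potassium channel gene Kcna4 with 34 and the kainate receptor gene Grik2 with 31. All 51 had an open promoter.

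Developmental regulators of other organs and regions flanked deserts in 21 of 40 cases, and 10 of the 21 had an open promoter. Sall3 had 40 sites, Sall1 had 35 and Tbx3 had 26 in their larger adjoining deserts. Synapse and pyramidal neuron genes did so in 6 of 30 cases, led by the neuropilin gene Nrp1 with 27. Of 33 autosomal markers of glia, vessels and choroid plexus, 1 did, the astrocyte gap junction gene Gja1, with 23 sites. Of 1455 olfactory and vomeronasal receptor genes, 3 did, and none of those 3 had an open promoter.

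Deserts are free of coding genes but not of noncoding ones. Noncoding gene bodies held 1450 desert sites, or 15.8%, and 413, or 4.49%, lay within 1000 bp of a noncoding start site, while 7599, or 82.7%, did neither. Sites at a noncoding start had median heights of 0.591 and 0.536 in replicates 1 and 2, against 0.499 and 0.439 for the sites that did neither. Of 1113 long noncoding RNA genes in deserts, 187, or 16.8%, had a site at a start. Besides Gm26901 and A230028O05Rik, the tallest such sites were at 2610035D17Rik between Sox9 and Slc39a11, with heights of 5.72 and 5.06, and at Gm38563 between A1bg and Myc, with 4.84 and 5.86. Pseudogenes had a site at the start in 61 of 2061 cases. No background is given for these shares or for that of microRNA genes below, such as the share of desert sequence near noncoding starts. Whether they exceed what the density of sites alone would give was not tested.

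Of 177 microRNA genes in deserts, 23 had a site at their annotated start, and 11 of the 23 belonged to the miR-344 family. All 13 Mir344 genes of the annotation lay in the desert between Snrpn and Ndn, an imprinted region of chromosome 7 (chr7:60340220-62146568), and 11 of them had a site within 1000 bp of their start. These genes were singled out after their values were seen. Of the 23 sites in this desert, 12 lay within 1000 bp of a Mir344 start. At Mir344-2 the site had a height of 2.09 in replicate 1 and 1.505 in replicate 2, and at Mir344g 1.71 and 1.62. The Mir344g site also lay at the start of the long noncoding RNA gene A330076H08Rik. The Mir344 site had 1.86 and 1.45, and the lowest, at Mir344h-2, had 0.368 and 0.375. The 12 sites had median heights of 0.735 and 0.675 in replicates 1 and 2, against 0.584 and 0.607 for the other 11 sites of the desert, and all 12 held a footprint in each replicate. In all 12, at least 100 bp aligned to another of the 12, with identities between 66.9% and 95.7%, so they are not independent of each other. Mir344d-2 and Mir344e had their nearest site 1951 bp and 3439 bp away.

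The mature forms of the family are shown to compare the genes that carry a site. All are RefSeq sequences on GRCm38.p6, with the seed (bases 2 to 8) in capitals. The 5p forms printed share the seed GUCAGGC, and other members of the family have other seeds on this arm.
mmu-miR-344-5p: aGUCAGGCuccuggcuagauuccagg
mmu-miR-344c-5p: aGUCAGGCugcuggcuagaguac
mmu-miR-344g-5p: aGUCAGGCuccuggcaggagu
mmu-miR-344-3p: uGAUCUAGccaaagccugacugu
mmu-miR-344c-3p: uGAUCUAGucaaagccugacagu
mmu-miR-344b-3p: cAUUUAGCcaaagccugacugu
mmu-miR-344d-3p: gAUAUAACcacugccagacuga
The miR-344 and miR-344c 3p forms share the seed GAUCUAG.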

How the data were processed

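The authors deposited, per replicate, 2 peak lists with a height per peak (unit: signal), a file of false discovery rates (a p-value type of measure) and a footprint list with the constant 0.01, on mm10 per the labels. No aligner or caller is named in the sources used here. The longer lists, 144270 and 124426 peaks, were used. From these, sites were placed with GENCODE M21 (basic set) and GRCm38.p6 sequence (Python 3.11.15, scipy 1.17.1, pandas 2.3.3, numpy 2.4.6). Copies were counted with blastn 2.17.0. Functions were tested on simulated data. The members, 7 gene lists, 19 motifs and alternatives were chosen with earlier results of these data known. The text names the 10 tallest sites, the 10 deserts and 5 clusters with the most sites, with ties named or counted, up to 5 sites by footprints, replicate difference or distance, and up to 4 genes of a list flanking the deserts with the most sites. Of the 10 tallest, 1 site is not reported here. Peak lists carry no cut totals here, so no counting interval is given. Values called at 2-fold are not tests.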

Additional observations from a re-analysis of the deposited data

How the results depend on the processing

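No paired analysis was possible because both samples belong to 1 group. Desert sites numbered 4929 with the shorter peak lists, 15392 over 100000 bp and 2646 over 500000 bp from start sites. With a replicate left out there were 11247 to 13820. There were 8415 when start sites of every transcript of coding genes were used, and 7739 outside noncoding genes too. The height ratio to other distal sites stayed below 1 in every alternative run: 0.661 with the shorter lists, 0.637 with 50% of the shorter peak covered, 0.671 and 0.560 at 100000 and 500000 bp, 0.929 for sites at or above the median height, 0.637 without mostly repeat-masked sites and 0.611 to 0.625 with a replicate left out. The share beyond 2-fold was 0.797% with the shorter lists and 1.79% without scaling. The share with another site within 10000 bp was 31.3% with the shorter lists, 51.4% and 35.6% at 100000 and 500000 bp, 35.3% and 67.8% for gaps of 5000 and 25000 bp, and 52.4% to 57.3% with a replicate left out. The footprint share was 93.3% with the shorter lists, 82.4% and 77.0% at 100000 and 500000 bp, and 68.2% to 71.1% with a replicate left out. The CTCF share, averaged over windows of both replicates (4.97%), was 6.55% with the shorter lists, 5.03% with 50% covered, 5.85% and 4.82% at 100000 and 500000 bp, 4.31% and 5.33% in windows of 100 and 300 bp, and 3.97% to 4.53% with a replicate left out. Flanking genes had open promoters in 74.3% with the shorter lists, and in 76.2% and 80.8% for promoter windows of 500 and 2000 bp. The cause of these shifts was not tested. The share of peaks found in both replicates cannot be computed with a replicate left out, and depth is not known.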

Other observations

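Desert sites with a CTCF match were relatively higher in replicate 2. After scaling to all shared sites, the log2 ratio of replicate 2 over replicate 1 had a median of 0.22 over 453 desert sites with a match and 0.00 over those with none, and 71.96% against 50.1% were higher in replicate 2. Other distal sites with a CTCF match had a median of 0.26. For the NEUROD-type E-box the medians at desert sites were -0.02 with a match and 0.02 without. With 1 library a replicate, this difference cannot be told apart from one between the pools or the libraries.

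The balance of peaks between replicates varied over individual deserts, with few peaks at the ends of the range. Over 308 deserts with at least 30 peaks in all, replicate 2 contributed from 32.4% of the peaks, between Maf and Dynlrb2, to 56.8%, between Uaca and Tle3, with a median of 45.3%. The 5th and 95th percentiles were 38.2% and 51.1%. Replicates 1 and 2 had 25 and 12 peaks at Maf-Dynlrb2, and 16 and 21 at Uaca-Tle3. Whether the range is wider than such small counts would give was not tested.

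Few desert sites lay near a start site of an mRNA annotated by RefSeq. Within 1000 bp of a RefSeq mRNA start there were 19 desert sites, or 0.207%. For 6 desert sites, or 0.0653%, a curated rather than a predicted mRNA started within that distance. Whether GENCODE M21 annotates the same genes was not checked.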
